A study of Mus musculus with 24 samples.

Results

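The shortest intervals in a genome-wide list of H3K9me2 regions from the mouse heart are described here: 311 regions of 200 to 800 bases among 53386 listed regions. A region was included if it lay on an autosome, was at most 800 bases wide, overlapped no other listed region and held a mean of at least 5 reads over the 12 input libraries. Of the 558 regions this narrow, 534 were autosomal, 150 of these overlapped another region, and 73 of the other 384 fell under the input floor. The choice used position, width and input depth, and no H3K9me2 count entered it directly. The list itself is one of H3K9me2 regions, and how it was made is not given in the sources used here. Listing, width and isolation may therefore depend on H3K9me2 reads of these libraries.

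The tissue came from 6 C57BL6 mice, 3 female and 3 male, aged 12 months. Each heart had gone through ischemic preconditioning, a series of brief closures of the left coronary artery: 4 cycles of 5 min of ischemia and 5 min of reperfusion, then 30 min of reperfusion. Each heart gave a pair of biopsies, 1 from the area at risk, the muscle supplied by the closed artery, and 1 from the remote myocardium, which the closure spared. Chromatin of each biopsy was sequenced after precipitation with an H3K9me2 antibody and without precipitation (input). This gave 4 groups of 6 libraries, area at risk H3K9me2, area at risk input, remote myocardium H3K9me2 and remote myocardium input, all from mice 17, 19, 22, 23, 27 and 30. All 4 groups had been preconditioned, and sham hearts were not analysed here, so the comparisons are between biopsies of the same hearts and between H3K9me2 and input.

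H3K9me2, the dimethylated form of lysine 9 on histone H3, is a chromatin mark laid down mainly by the EHMT1 and EHMT2 enzymes and removed by several demethylases. It lies in broad blocks over silent genes and gene-poor sequence, and it is usually depleted at the CpG-rich promoters of active genes. In heart muscle it is known for its part in keeping non-cardiac genes silent. A biopsy mixes cell types, so fewer cells that carry the mark and less of the mark in each cell cannot be told apart in any of these values. Counts of chromatin fragments do not measure expression, so the labelled tissue could not be checked against marker genes.

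Narrow regions over CpG-rich promoters (at least 20 CpG in the windows described next) all held less H3K9me2 than input, so 5 promoters are shown first. Windows from 250 bases before to 50 bases after a transcription start were taken from RefSeq (GRCm38.p6), which gave one for 27025 genes and 79.9% of coding genes. Of the 311 regions, 30 overlapped such a window, by 8 to 300 bases. Printed below are the 250 bases before the start, read along the gene, with each CpG in capitals. The first 3 belong to regions with fewer H3K9me2 reads than input would give, and Zfp985 and Tmod2 are shown as CpG-poor promoters with ratios above 0, though other CpG-poor ones lay below 0. Their positions are chr17:74338737-74338986 (+) for Spast, chr19:8756853-8757102 (+) for Nxf1, chr1:189728018-189728267 (+) for Ptpn14, chr4:147553027-147553276 (+) for Zfp985 and chr9:75611326-75611575 (-) for Tmod2.
Spast: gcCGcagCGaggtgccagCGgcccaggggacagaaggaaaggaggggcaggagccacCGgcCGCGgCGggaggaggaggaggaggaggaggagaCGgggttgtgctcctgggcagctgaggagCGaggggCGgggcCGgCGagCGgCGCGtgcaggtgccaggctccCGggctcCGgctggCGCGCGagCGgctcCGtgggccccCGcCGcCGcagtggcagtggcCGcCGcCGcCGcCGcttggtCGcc
Nxf1: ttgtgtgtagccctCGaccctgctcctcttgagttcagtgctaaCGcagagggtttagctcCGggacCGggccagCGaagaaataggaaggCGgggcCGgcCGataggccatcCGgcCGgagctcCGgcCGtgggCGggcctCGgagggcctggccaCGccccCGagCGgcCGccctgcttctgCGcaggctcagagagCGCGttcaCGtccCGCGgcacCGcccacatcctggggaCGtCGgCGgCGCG
Ptpn14: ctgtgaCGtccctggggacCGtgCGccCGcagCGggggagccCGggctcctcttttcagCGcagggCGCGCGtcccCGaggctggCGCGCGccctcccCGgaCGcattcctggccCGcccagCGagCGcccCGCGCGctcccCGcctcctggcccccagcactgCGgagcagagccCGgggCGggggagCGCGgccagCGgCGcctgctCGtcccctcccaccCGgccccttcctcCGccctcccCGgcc
Zfp985: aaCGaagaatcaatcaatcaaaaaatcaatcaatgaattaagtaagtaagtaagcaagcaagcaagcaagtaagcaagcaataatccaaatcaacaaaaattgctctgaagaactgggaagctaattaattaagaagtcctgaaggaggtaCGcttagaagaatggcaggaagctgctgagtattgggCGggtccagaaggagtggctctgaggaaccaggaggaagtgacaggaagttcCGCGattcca
Tmod2: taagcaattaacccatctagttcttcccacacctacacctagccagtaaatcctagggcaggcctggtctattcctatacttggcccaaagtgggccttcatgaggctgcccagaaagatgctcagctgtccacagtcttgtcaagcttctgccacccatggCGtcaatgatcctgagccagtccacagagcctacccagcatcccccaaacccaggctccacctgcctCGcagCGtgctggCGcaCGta
The stretch before Spast, the gene of the microtubule-severing enzyme spastin, held 31 CpG, and 187 of its 250 bases lay in the narrow region. Nxf1, the gene of the main mRNA export receptor, had 30 CpG there, and Ptpn14, a tyrosine phosphatase gene, had 34. Zfp985, a zinc finger gene, and Tmod2, which encodes a tropomodulin, had 5 each. The median over all such 250-base stretches was 6 CpG. Only 3.53% of them had as many as Ptpn14 and 5.19% as many as Spast, against 55.6% with as many as Zfp985.

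The 24 libraries held 416683 to 1196368 reads in listed regions for area at risk H3K9me2, 443261 to 981763 for remote myocardium H3K9me2, 1286383 to 2478668 for area at risk input and 1405503 to 1770520 for remote myocardium input. The narrow regions took 1214 to 3220 of these in an H3K9me2 library of the area at risk and 3722 to 7608 in its inputs. Remote myocardium libraries gave them 1305 to 2747 and 3837 to 4823. A single narrow region was thinly covered: the median of its mean count was 5.83 reads in area at risk H3K9me2 and 14.7 in area at risk input, and 5.5 and 12.5 in the remote myocardium. The area at risk libraries of mouse 23 were the deepest of their groups. The input of that biopsy differed from the other 5 by a chi-square of 1.66 to 2.0 per region, where the other pairs gave 1.19 to 1.51. The H3K9me2 library of that biopsy differed from the other 5 by 1.11 to 1.64, where the other pairs gave 1.04 to 1.29.

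The 311 regions were spread over all 19 autosomes, from 6 on chromosome 18 to 28 on chromosome 2, and covered 227 kb. Of them, 225 were 800 bases wide, 65 were 600, 19 were 400 and 2 were 200. The annotation used (coding and long noncoding genes of RefSeq) gave no strand, and regions lying no more than 2 kb from one or other gene boundary were put in a gene end class. By this measure 95 regions (30.5%) lay at a gene end, 145 (46.6%) elsewhere inside a gene and 71 (22.8%) between genes. Among 9889 regions of 1000 to 2000 bases under the same rule the shares were 32.2%, 47.1% and 20.7%, and among 21872 wider regions 37.1%, 45.4% and 17.6%. The narrow regions reached 274 genes, 233 of them coding.

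Narrow regions stood farther from other listed regions than wide ones did. The median distance to the nearest listed region was 7 kb (interquartile range 2 to 31.3), compared with 4.2 kb for regions of 1000 to 2000 bases and 3.2 kb for those above 2000. A distance above 100 kb was found for 34 of the 311 (10.9%), for 5.25% of the middle class and for 2.49% of the wide class. These differences in position were not tested. The most isolated, on chromosome 3, had no other listed region within 2692.8 kb. The 71 intergenic regions lay a median of 14.3 kb from the nearest gene, and 6 of them lay more than 100 kb away.

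Across all 311 regions, H3K9me2 reads were about as frequent as input reads. The measure was the share of a library's reads that fell in these regions, H3K9me2 over input of the same mouse and biopsy, from raw counts. In the area at risk the ratio was 0.877 in the lowest mouse, 0.972 at the median and 1.12 in the highest, with a mean of 0.976 ± 0.0885 (SD, n = 6). It was above 1 in 2 of 6 mice. Remote ratios ran from 1.02 through 1.08 to 1.17, with a mean of 1.08 ± 0.0517, and was above 1 in all 6. The groups of ratios overlapped, and the area at risk had the higher ratio in 1 of 6 mice.

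That difference between biopsies lay in the inputs more than in the H3K9me2 libraries. The share of H3K9me2 reads in the area at risk was 0.977 ± 0.0732 times that in the remote myocardium (SD, n = 6) and was the higher in 2 of 6 mice. The same ratio for input was 1.08 ± 0.0589, and the area at risk was the higher in 6 of 6. For input in regions of 1000 to 2000 bases the ratio was 1.03 ± 0.0204, higher in 5 of 6 mice, and in wider regions 0.999 ± 0.00335, higher in 3 of 6. Without 2 regions of very high input, described below, the input ratio of the narrow regions was 1.1 ± 0.0706. The median total was 1618107 reads for the area at risk inputs and 1605811 for the remote inputs, and the part of depth in the input ratio was not tested.

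Single regions had a wide range of ratios, each from few reads. Each was fitted with edgeR's quasi-likelihood test over the whole list, and the log2 ratios over all 311 are given from a fit without a filter on low counts. They spanned -2.46 to 1.09 for the area at risk, with a median of -0.06 and 148 of 311 above 0. Remote myocardium values spanned -2.64 to 1.29, with a median of 0.13 and 178 above 0. Medians over all regions tested were -0.01 in both biopsies. The interquartile range of the 311 was -0.408 to 0.302 in the area at risk and -0.321 to 0.537 in the remote myocardium. The median SE of a region's log2 ratio was 0.332 and 0.31. The part of counting error in the spread was not tested. The same regions tended to be high or low in both: 129 were above 0 in both and 114 below 0 in both, and across the 311 regions Pearson's r was 0.80. This correlation is across regions of the same 6 hearts, which are not independent replicates.

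**Figure D1:**
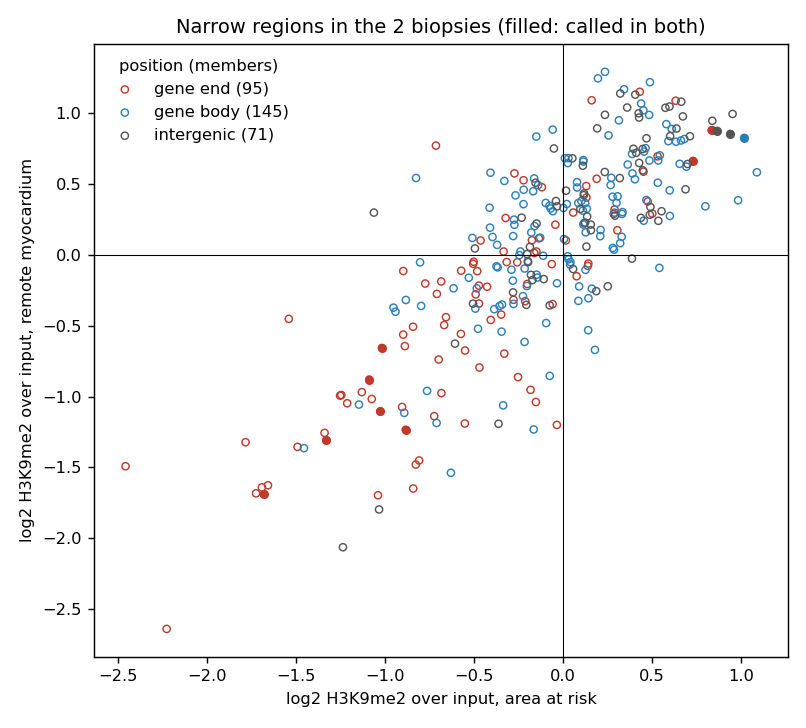
Log2 H3K9me2 over input in the area at risk (x) and the remote myocardium (y) for the 311 narrow regions, 1 point a region, from the fit without a filter. Gene end regions (red) fill the lower left, 243 of 311 points have the same sign in both biopsies, and filled points mark the 11 regions called in both.

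Calls were made at a Benjamini-Hochberg adjusted p under 0.05 among regions that passed edgeR's filter on low counts. For the area at risk, 162 of the 311 narrow regions passed the filter, of which 6 were called higher than input and 13 lower. Of all 40928 regions tested there, 23.6% were called, 11.3% higher and 12.3% lower. For the remote myocardium, 140 passed, 36 were called higher and 16 lower, where 40.5% of all 40767 tested were called, 20.5% higher and 20% lower. A region could pass the filter through its H3K9me2 or its input counts, and 122 of the 311 passed in neither biopsy. Ratios above 0 were found in 93 of the 162 that passed for the area at risk, and in 148 of all 311 without the filter. For the remote myocardium they were found in 99 of 140 and in 178 of 311. With no filter, 6 of the 311 were called higher and 30 lower in the area at risk, against 20% of all regions (9.49% and 10.5%), and 51 were called higher and 45 lower in the remote myocardium, against 35.4% (17.7% each way). The area at risk count of 19 filtered calls fell to 12 without mouse 19, with higher calls going from 6 to 2, and its lower calls went from 13 to 7 without mouse 23. In the higher direction 6 became 4 without mouse 27 and 9 without mouse 23. Remote higher calls went from 36 to 22 without mouse 23, and lower calls from 16 to 9 without mouse 30. The filter was run anew in each of these fits, so the number tested changed as well. Without mouse 19, 23 and 27 it passed 174, 125 and 173 narrow regions in the area at risk. Without mouse 23 and 30 it passed 150 and 93 in the remote myocardium. The shares called over all regions in these fits were not counted.

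Of the 311 narrow regions, 113 passed the filter in both biopsies. Of these 113, 5 were called higher than input in both, 6 lower in both and 0 in opposite directions. Without the filter, with all 311 tested, these counts were 5, 24 and 0. The same counts over all listed regions were not made, so the agreement is not shown to be particular to narrow regions. The authors' deposited table gave, at an FDR under 0.05, 4 narrow regions higher and 27 lower in the area at risk, and 39 and 39 in the remote myocardium. Of all its regions, 17.2% and 28.5% passed.

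Position in or near genes went with the level. Leaving out the 2 regions of very high input, gene end regions had an H3K9me2 over input ratio of 0.701 in the lowest mouse, 0.741 at the median and 0.818 in the highest in the area at risk, a mean of 0.748 ± 0.0396 (SD, n = 6). The remote mean was 0.815 ± 0.0621, with a highest mouse of 0.922, so no mouse reached 1 in either biopsy. Regions inside genes had 1.03 ± 0.112 and 1.17 ± 0.0661. Intergenic regions had 1.19 ± 0.147 and 1.32 ± 0.112. Gene body regions were above gene end regions in 6 of 6 mice in both biopsies, and intergenic regions were above gene body regions in 5 of 6 mice (area at risk) and 6 of 6 (remote).

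The order was the same in wide regions. At gene ends, regions of 1000 to 2000 bases had 0.866 ± 0.0207 and 0.878 ± 0.0075 in the same order of biopsies (SD, n = 6). Regions above 2000 bases had 0.912 ± 0.0107 and 0.898 ± 0.0114. The lower value of the narrow gene end regions was not tested against these. Among the calls that passed the filter, 11 of 13 lower regions of the area at risk and 14 of 16 of remote tissue were at gene ends, all of these at coding genes. Without the filter these were 23 of 30 and 33 of 45. Of regions above 2000 bases, 1902 of 2783 lower calls in the area at risk and 2743 of 4442 in remote tissue were at gene ends. Of the 36 higher in the remote myocardium, 19 were inside genes, 13 intergenic and 4 at gene ends.

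**Figure D2:**
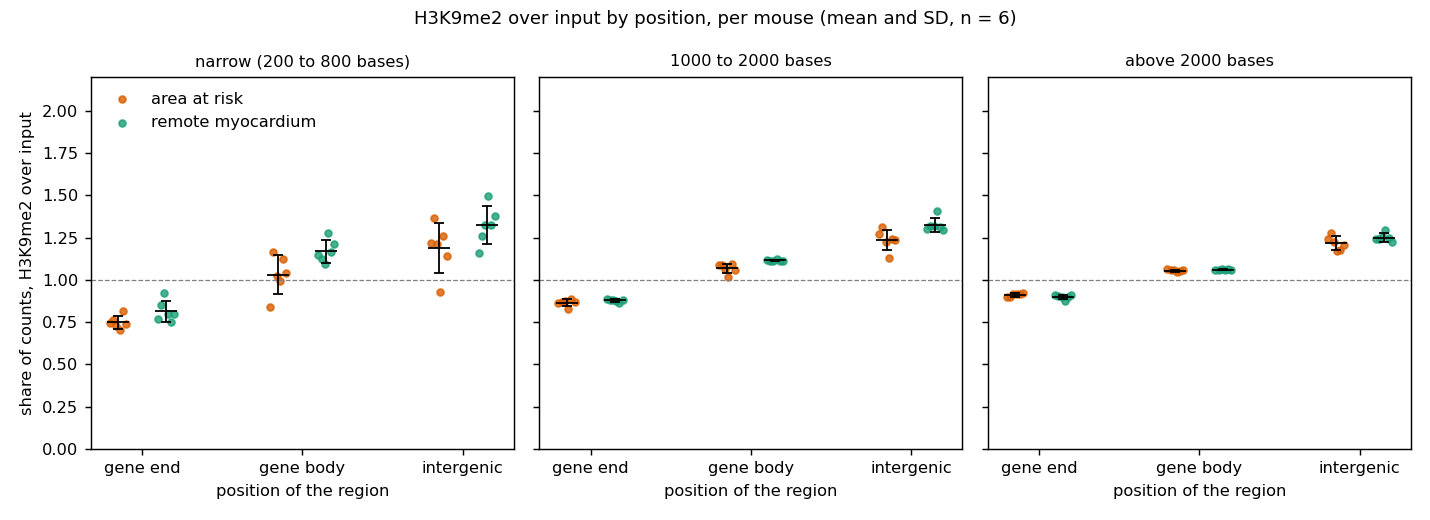
H3K9me2 share over input share (y) for regions at gene ends, in gene bodies and between genes (x), 1 point a mouse, with mean and SD over 6 mice, in 3 classes of width. In the left panel all gene end points are below 1 in both biopsies, and the order gene end, gene body, intergenic is found in every panel.

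Isolation went with the level too. Narrow regions within 2 kb of another listed region had an area at risk ratio of 0.852 ± 0.0541 and a remote ratio of 0.907 ± 0.0685 (SD, n = 6). The ratio was 0.941 ± 0.0899 and 1.06 ± 0.048 at 2 to 20 kb, and 1.05 ± 0.13 and 1.15 ± 0.0939 at 20 to 100 kb. The 33 regions more than 100 kb from any other had 1.28 ± 0.215 and 1.56 ± 0.225, and all 6 mice were above 1 in the remote myocardium and 5 of 6 in the area at risk. Wide regions showed a like gradient, reaching 1.33 ± 0.123 and 1.41 ± 0.0882 above 100 kb. Distance to a listed region depends on how the list was made, so it may not be independent of the level.

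The gradient with isolation was found in gene bodies and between genes, and not at gene ends. Gene body regions had 0.937 ± 0.0758 and 1.06 ± 0.0562 within 20 kb of another region, and 1.33 ± 0.264 and 1.52 ± 0.148 beyond it. Intergenic regions had 1.05 ± 0.139 and 1.11 ± 0.0666 within 20 kb, and 1.42 ± 0.143 and 1.7 ± 0.224 beyond it. At gene ends the value was 0.778 ± 0.0358 and 0.844 ± 0.0742 within 20 kb and lower beyond it, 0.686 ± 0.0523 and 0.757 ± 0.0626 over 31 regions. Values were also compared with those of neighbours. Across 201 narrow regions, r with the nearest non-overlapping region within 20 kb was 0.39 for the area at risk and 0.48 for remote tissue. Across the 110 with a farther neighbour it was 0.08 and 0.04. Agreement in sign fell less: 69.7% and 72.6% of regions had their neighbour's sign within 20 kb, and 62.7% and 64.5% beyond it. These points share libraries and depth, and the correlations are descriptions.

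**Figure D3:**
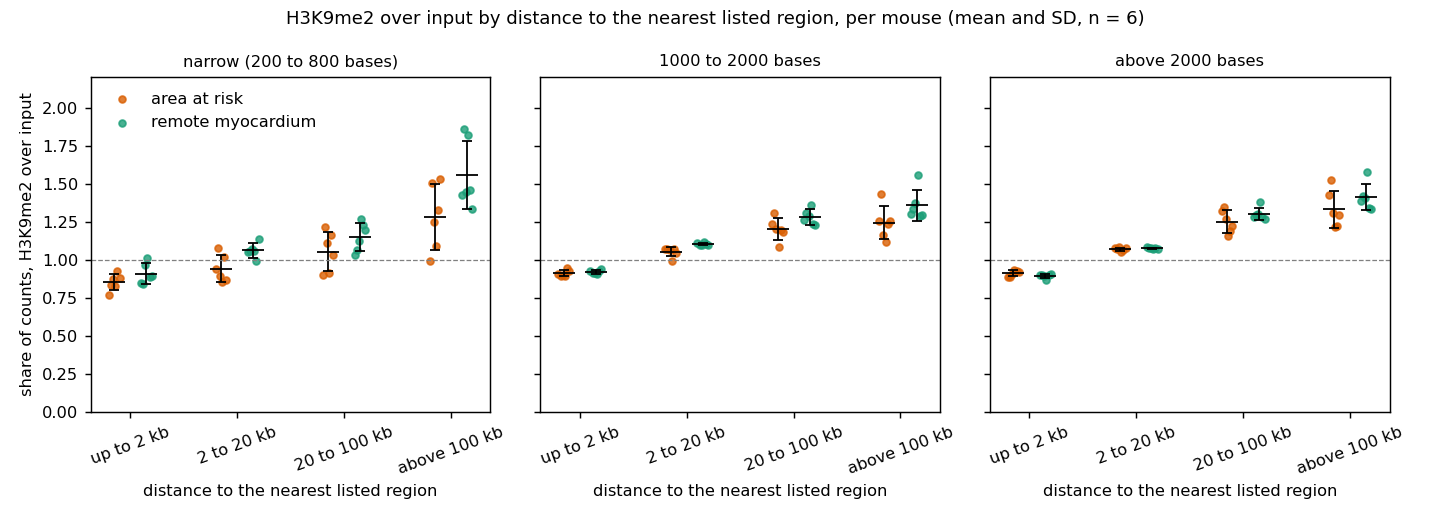
H3K9me2 share over input share (y) by the distance from a region to the nearest other listed region (x), 1 point a mouse, with mean and SD over 6 mice, in 3 classes of width. In the narrow class the mean for the area at risk climbs from 0.852 within 2 kb to 1.28 above 100 kb, and that for the remote biopsy from 0.907 to 1.56.

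The narrow region at the Spast promoter (chr17:74338800-74339599) had the smallest p among the lower regions that passed the filter in each biopsy. It held 1, 2 and 6 reads (lowest, median, highest of 6 mice) in area at risk H3K9me2 and 12, 20 and 46 in area at risk input. Remote myocardium H3K9me2 gave 0, 2 and 6 reads and input 12, 20 and 23. In CPM (counts scaled to the library's total) the area at risk groups did not overlap and the remote groups did, with H3K9me2 below input in 6 of 6 mice in each. The log2 ratio was -1.68 (SE 0.346, edgeR adjusted p 0.000304) in the area at risk and -1.70 (SE 0.351, adjusted p 2.77e-05) in the remote myocardium.

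The region at the shared start of Nxf1 and the noncoding 1700023D09Rik (chr19:8756800-8757599) also lay within 2 kb of Stx5a, the gene of a Golgi SNARE protein. Its H3K9me2 reads were 0, 2.5 and 6 against input of 11, 15.5 and 32 in the area at risk, where the groups did not overlap. They were 0, 2.5 and 6 against 11, 16 and 23 in the remote myocardium. It was lower than input in both, with log2 ratios of -1.33 (edgeR adjusted p 0.00457) and -1.31 (adjusted p 0.00103). H3K9me2 was below input in all 6 mice of each biopsy.

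A region at an end of Ogfr, the gene of the opioid growth factor receptor, had 1, 4 and 5 H3K9me2 reads and 11, 16 and 35 input reads in the area at risk, where the groups overlapped in CPM. It was lower than input in that biopsy, with a log2 ratio of -1.34 (edgeR adjusted p 0.00382). In the remote myocardium it missed the count filter, with 2, 3.5 and 6 H3K9me2 reads against 14, 19.5 and 26 and no overlap, and the unfiltered fit gave -1.26 (adjusted p 0.000648).

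Other gene end regions were lower in both biopsies. At Zhx1, a homeobox repressor gene, reads were 1, 3.5 and 10 against input of 14, 20.5 and 36 in the area at risk, without overlap in CPM, and the log2 ratios were -1.03 and -1.11 (edgeR adjusted p 0.0112 and 0.00174). At Ppp2r3a, which encodes a regulatory subunit of protein phosphatase 2A, the ratios were -1.09 and -0.89 (adjusted p 0.0132 in each), and the area at risk call ended without mouse 19 (adjusted p 0.0508). Tmcc1, an endoplasmic reticulum protein gene, had -0.89 and -1.24 (adjusted p 0.0333 and 0.000895). Its area at risk call ended in DESeq2 (adjusted p 0.0856) and without mouse 17, 22, 27 or 30 (0.0675, 0.104, 0.101 and 0.103). Clpx, which encodes the ATPase of a mitochondrial protease, was lower in the area at risk at -1.22 (adjusted p 0.00656, and 0.0517 without mouse 27).

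Lower regions of the remote myocardium included the end of 2510009E07Rik, where no H3K9me2 library exceeded 4 reads and no input library was below 17, with a log2 ratio of -1.49 (SE 0.319, edgeR adjusted p 5.29e-05). In the area at risk it was -0.83 with an adjusted p of 0.0605. Iws1, the gene of a transcription elongation factor, had -1.63 (adjusted p 0.00014) in the remote myocardium and, without the filter, -1.66 (adjusted p 0.00201) in the area at risk. Rab17, which encodes a small GTPase of membrane traffic, had -1.21 (adjusted p 0.000649) in the remote myocardium and -0.04 (adjusted p 0.942) in the area at risk. The difference between its biopsies, 1.17 on the log2 scale, had an unadjusted p of 0.0119 and an adjusted p of 1 in edgeR's interaction test.

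The lowest ratio in each biopsy was at a region too thin for the filter, and the regions given next were chosen after their values were seen. At Tia1, the gene of a stress granule protein, a 400-base region had 0, 1 and 1 reads in remote myocardium H3K9me2 and 7, 9.5 and 15 in its input. Its unfiltered log2 ratios were -2.64 (edgeR adjusted p 3.62e-05) there and -2.23 (adjusted p 0.00144) in the area at risk. At Gmeb2, a DNA-binding protein gene, the counts were 0, 1 and 4 against 8, 14 and 26 in the area at risk, with ratios of -2.46 (adjusted p 0.00011) in that biopsy and -1.49 (adjusted p 0.00239) in the other. Low ratios were not limited to gene ends. An intergenic region of chromosome 1 near Gm32039 had 1, 1 and 3 H3K9me2 reads against 13, 15.5 and 20 of input in the remote myocardium, with unfiltered ratios of -2.06 (edgeR adjusted p 6.15e-06) there and -1.24 (adjusted p 0.0121) in the area at risk. One near Celf5 had -1.80 (adjusted p 4.87e-05) and -1.03 (adjusted p 0.0311) in the same order.

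Ptpn14, whose promoter is printed above, passed the filter in the area at risk and not in the remote myocardium. It was lower in the area at risk at -0.85 (edgeR adjusted p 0.0442), a call that ended without the filter (-0.84, adjusted p 0.0526). Remote myocardium H3K9me2 had 1, 2.5 and 5 reads and input 12, 22.5 and 24, and the unfiltered ratio was -1.65 (adjusted p 1.41e-05).

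Promoter letters were counted for the 30 regions over a RefSeq window. At least 20 CpG stood in a window of 20 of them (66.7%), whereas 26.5% of all 32851 windows of 300 bases held that many. The 6-base box GGGCGG, or its reverse complement CCGCCC, was in a window of 21 of them (70%) and in 35.7% of all windows. A CpG inside the box counts in both measures. Some regions took part with more than 1 window, and a match says only that the letters are there.

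The 20 regions over a window with at least 20 CpG were all below 0 in both biopsies. Their median log2 ratios were -0.90 (area at risk) and -1.04 (remote), and their pooled reads gave H3K9me2 over input of 0.504 ± 0.125 and 0.505 ± 0.0611 (SD, n = 6), below 1 in every mouse. Without the filter 10 of the 20 were called lower for the area at risk and 15 for the remote biopsy, and 0 were called higher in either. Of all regions 10.5% and 17.7% were called lower in these fits. The 10 regions over windows with fewer CpG had medians of -0.04 and 0.22 and pooled ratios of 0.983 ± 0.205 and 1.06 ± 0.208. Of these 10, 1 was called higher and 1 lower in the area at risk, and 1 higher and 2 lower in the remote fit. The sets overlapped by region: with 12 CpG each, Abi1 had -1.49 and -1.36 and Med7 -0.72 and -1.14, while Hacd1, with 41 CpG, had -0.49 and -0.28. These 3 were named after their values were seen. Their regions overlapped those windows by 53 bases at Abi1, 11 at Med7 and 286 at Hacd1. The limit of 20 CpG was set with values known, so no test is given. The median GC content was 67.5% in the windows of the first set and 52.5% in the second, and its part in the difference was not tested.

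**Figure D4:**
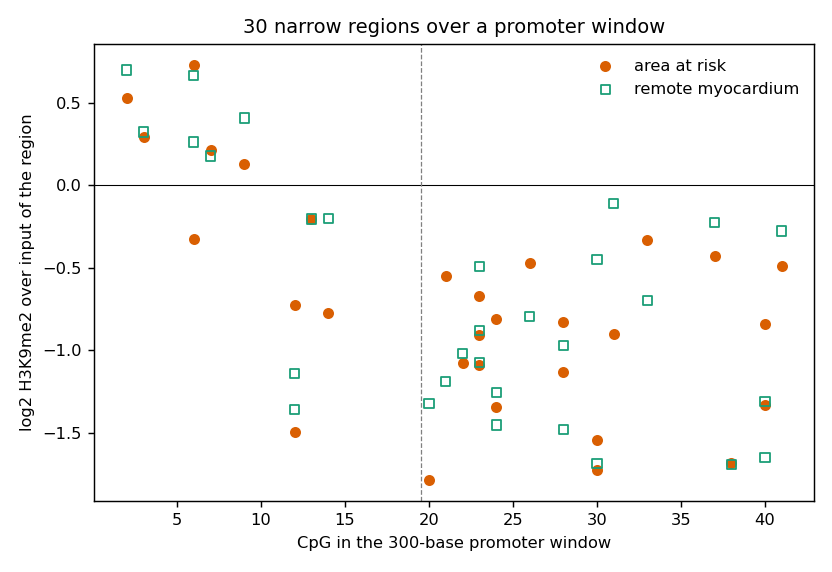
Log2 H3K9me2 over input of a region (y, fit without a filter) against the number of CpG in the 300-base promoter window it overlaps (x, the window with most CpG where there are several), 1 point for each biopsy. To the right of the dashed line, at 20 or more CpG, all 20 regions are below 0 in both biopsies.

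Gene end regions with no promoter window under them, 66 in number, were less depleted than the 20 over CpG-rich windows. Their medians were lower than those of the 10 over windows with fewer CpG. The median log2 ratios of the 66 were -0.30 and -0.13. Without the filter 12 of them were called lower and 1 higher in the area at risk, and 16 lower and 4 higher in the remote myocardium. Over all regions 10.5% were lower and 9.49% higher in the first fit, and 17.7% each way in the second.

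Of the regions called higher than input, 2 of 6 (area at risk) and 4 of 36 (remote) lay at gene ends, where 30.5% of the 311 regions lay. An intergenic region of chromosome 5 (chr5:15561600-15562399), 12.9 kb from the noncoding Gm30613 and 544 kb from any other listed region, had 12, 16 and 22 H3K9me2 reads and 14, 19.5 and 24 input reads in the area at risk. Since the H3K9me2 libraries are shallower, this was 23.6 ± 5.03 against 12.1 ± 3.6 CPM (SD, n = 6), higher in 6 of 6 mice with overlap between the groups. The log2 ratio was 0.94 (SE 0.229, edgeR adjusted p 0.00201). In the remote myocardium it was 0.85 (adjusted p 0.000608), higher in 5 of 6 mice, and 0.50 without mouse 23 (adjusted p 0.0895).

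Inside Clvs1, which encodes a protein of clathrin-coated vesicles, a region (chr4:9218000-9218799) had 17.5 ± 8.35 CPM in area at risk H3K9me2 and 8.39 ± 4.25 in input (SD, n = 6), with overlap. It was higher in both biopsies, at log2 1.01 (edgeR adjusted p 0.011) and 0.82 (adjusted p 0.00849). The first call ended without mouse 19 (adjusted p 0.122) and the second without mouse 23 (0.0822). A second intergenic region, on chromosome 4 (chr4:121998800-121999599), had 0.86 (adjusted p 0.0197) in the area at risk and 0.87 (adjusted p 0.00145) in the remote myocardium, the latter higher in 6 of 6 mice. Its area at risk call ended without mouse 17, 22, 27 or 30 (adjusted p 0.0891, 0.0624, 0.0793 and 0.0612). At an end of the noncoding Gm41986 the values were 0.83 (adjusted p 0.036) and 0.88 (adjusted p 0.000475). The first of these ended in DESeq2 (adjusted p 0.0571) and without mouse 19, 22 or 27 (0.159, 0.183 and 0.0631).

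Zfp985 was a gene end region higher than input, with its CpG-poor promoter inside it (chr4:147552800-147553599). Reads were 8, 13.5 and 22 in area at risk H3K9me2, 13, 19.5 and 23 in its input, 6, 10.5 and 25 in remote myocardium H3K9me2 and 13, 16.5 and 26 in its input, and the groups overlapped in CPM. Log2 ratios were 0.73 (edgeR adjusted p 0.0283) and 0.66 (adjusted p 0.0169), higher in 5 of 6 and 3 of 6 mice. The second was 0.28 without mouse 23 (adjusted p 0.435) and 0.59 without mouse 27 (0.0648). The first ended without mouse 19, 23 or 27 (0.0805, 0.112 and 0.0787), and DESeq2 called neither (0.0573 and 0.0609). The gene sits in a cluster of related zinc finger genes, among which reads can be split, so these values are uncertain.

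Called higher in the remote myocardium and not in the area at risk were regions inside Pard3b, a cell polarity gene, with 1.17 (SE 0.256, edgeR adjusted p 7.58e-05), and at an end of Cd300c, a myeloid receptor gene, with 1.09 (adjusted p 0.000533). A pair of intergenic regions joined them, 95.7 kb from Gm32121 with 1.08 (adjusted p 0.000134) and 10.2 kb from Mtx2, a mitochondrial import gene, with 1.04 (adjusted p 0.000344). In the area at risk these 4 had 0.34, 0.16, 0.66 and 0.59, with adjusted p of 0.462, 0.758, 0.131 and 0.131. Inside Rgs6, a regulator of G protein signalling, the area at risk was higher at 0.98 (adjusted p 0.0211) and the remote myocardium had 0.38 (adjusted p 0.28). The Rgs6 call ended in DESeq2 (0.053) and without mouse 19 or 27 (0.176 and 0.109). A call in 1 biopsy does not show that the biopsies differ, and no interaction among these passed the threshold.

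**Figure D5:**
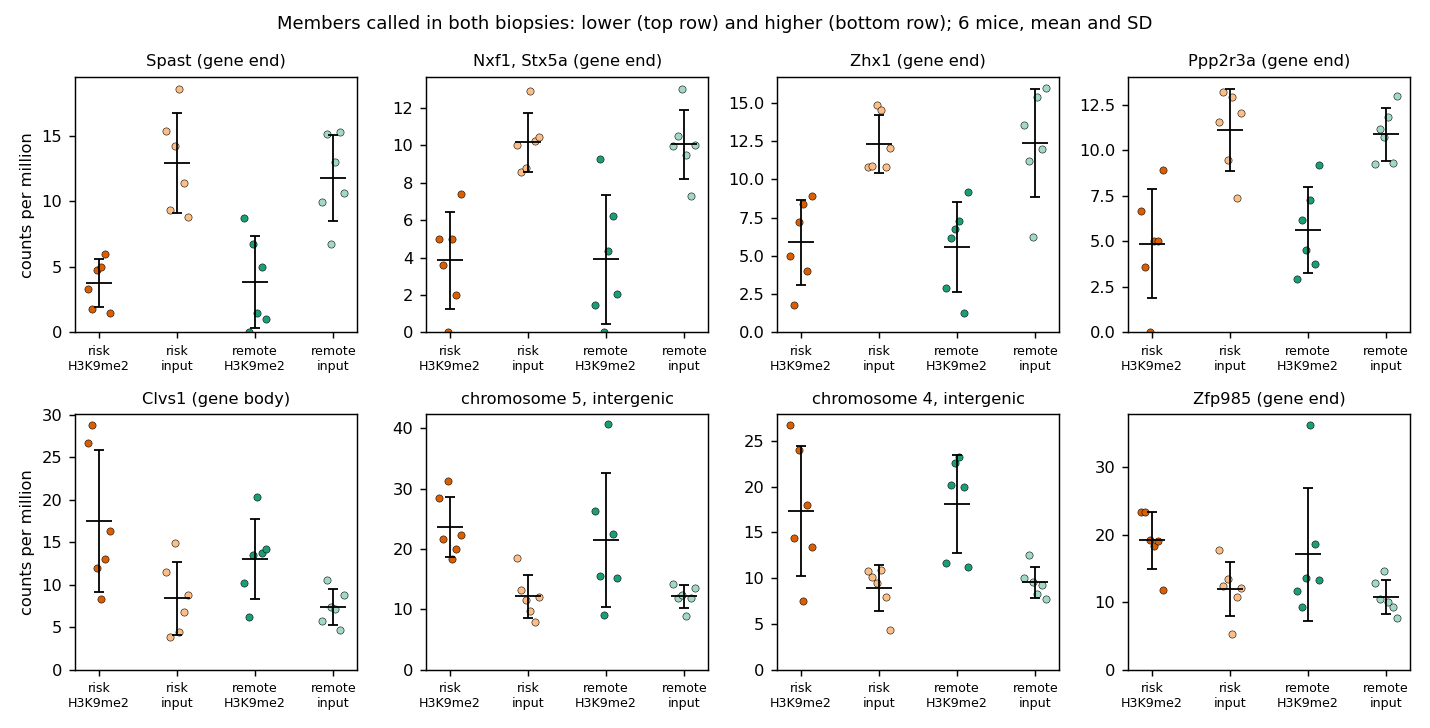
CPM (y, each panel from 0) of 8 regions called in both biopsies, 1 point for each of 6 mice with mean and SD, in area at risk H3K9me2 and input and in remote myocardium H3K9me2 and input (x). In the top row both H3K9me2 means are below their inputs, and in the bottom row both are above.

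A pair of regions stood apart by input depth. A 600-base region inside Zc3h7a (chr16:11143800-11144399), a zinc finger protein gene, had 199, 235 and 427 reads in area at risk input and 213, 282 and 300 in remote myocardium input. An intergenic 800-base region of chromosome 3 (chr3:5860200-5860999) had 197, 218 and 327, and 205, 232 and 288. The other 309 regions had means of at most 22.5 and 20.5 reads in the input groups. H3K9me2 reads were high there too, from 62 to 181 a library, and the log2 ratios at Zc3h7a were -0.12 and -0.01 (edgeR adjusted p 0.491 and 0.94). The chromosome 3 region had 0.15 (adjusted p 0.364) and 0.21 (adjusted p 0.0422). The latter call ended in DESeq2 (0.334) and without mouse 17, 19, 22 or 23 (0.0688, 0.0948, 0.0722 and 0.295).

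Between the biopsies no narrow region passed the threshold. In H3K9me2 alone 9 of the 311 passed the count filter and 0 were called, as were 0 of all 31526 regions tested (0% called). Without the filter edgeR also called 0 of 311 (unadjusted p under 0.05 for 10), and DESeq2 called 0. In the inputs, 251 were tested and 0 called (0% of all 42603), 7 having an unadjusted p under 0.05. The difference corrected for input, edgeR's interaction of biopsy and assay, gave 260 tested and 0 called (0% of all 42445), 10 having an unadjusted p under 0.05. DESeq2 called 0 in both of these as well. Over the 311 regions the median SE of the unfiltered log2 difference was 0.369 in H3K9me2 and 0.459 after correction for input.

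The regions nearest to a biopsy difference are given as values. Zfp982, a zinc finger gene of the chromosome 4 cluster, held a region with 4, 9 and 10 H3K9me2 reads in the area at risk and 8, 13 and 14 in the remote myocardium, a log2 difference of -0.59 with overlap between groups (edgeR adjusted p 0.999). Over input, this region was higher in the remote myocardium at 0.68 (adjusted p 0.0149), which ended without mouse 19 or 27 (0.072 and 0.0561), and was 0.01 (adjusted p 0.991) in the area at risk. In the inputs, a region inside Elmo1, a gene of the engulfment machinery, had 14, 18 and 33 reads in the area at risk and 4, 11 and 15 in the remote myocardium, a log2 difference of 0.83 (adjusted p 1). One inside Fry, the gene of a microtubule-binding protein, had 0.69 (adjusted p 1). After correction for input, the smallest p among tested regions with a negative value were at Elmo1, with -1.38, and at an intergenic region 6.22 kb from the relaxin gene Rln3, with -1.34. Among positive values they were at Rab17, given above, and inside Cdh23 and Vsir, with 0.84 (adjusted p 1 for each). Over all 311 regions this difference ran from -1.47 to 1.17.

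Over all 311 regions, the fitted log2 difference between biopsies in H3K9me2 had a median of 0.01, with 156 regions above 0. In the inputs the median was 0.14, with 234 regions above 0, and over all regions tested it was close to 0.

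The narrow regions reached 274 of 34631 annotated genes, and the lists with 1 such gene had 12 to 29 annotated genes. Of the cardiomyocyte list only Ldb3, which encodes a Z-disc protein, held one, with log2 ratios of 0.13 and 0.16 (edgeR adjusted p 0.799 and 0.683). Of the immediate early list Nr4a1, a nuclear receptor gene, held one, which missed the filter in both biopsies and had unfiltered ratios of -0.49 and -0.38 (adjusted p 0.352 and 0.404). Prdm16, of the H3K9 methyltransferase list, had -0.28 and 0.24 (adjusted p 0.528 and 0.513). The neuronal splicing gene Rbfox3 had 0.27 and 0.54 (adjusted p 0.55 and 0.113), and the germ line gene Piwil2 had unfiltered 0.02 and 0.36 (adjusted p 0.974 and 0.384). Of 369 zinc finger genes, 8 lay at a narrow region, with 7 regions between them. Of these, 1 of 4 tested was higher than input for the area at risk and 2 of 5 for remote tissue, all on chromosome 4, and 0 were lower. Of all regions tested 11.3% and 20.5% were higher. The fibroblast, endothelial and mural, immune, mTOR, autophagy, hypoxia, housekeeping and odorant receptor lists had no gene at a narrow region. The odorant receptor list had 1106 genes and the others 12 to 30.

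The narrowest regions, of 200 bases, were 1 inside Tdrd1, a gene of the piRNA pathway, and 1 at an end of Gm5149. Tdrd1 had 3, 4 and 8 H3K9me2 reads and 3, 8 and 17 input reads in the area at risk, and Gm5149 had 0, 3.5 and 6 against 2, 5.5 and 15. Neither passed the filter, and the unfiltered edgeR adjusted p values ran from 0.584 to 0.694.

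At the edges of the rule, the 225 regions of 800 bases had median log2 ratios of -0.06 (area at risk) and 0.11 (remote), and the 484 regions of 1000 bases had -0.01 and 0.08. The 3 regions with a mean of 5 to 6 input reads had 0.19 and 0.33, and 12 regions with 4 to 5 had 0.52 and 0.72. Input reads form the denominator of these ratios.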

How the data were processed

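Members, lists and alternatives were chosen with earlier results of these data known. The authors deposited 4 tables of whole-number counts per listed region (mm10) for 24 libraries, with log2 fold changes, log2 mean CPM, and p-values with FDR. The submitters' processing notes name Bowtie2 2.2.2, SICER 1.1 and edgeR without giving their roles. Region merging, duplicate removal and the counting rule are not given in the sources used here.

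From the counts, TMM-normalized quasi-likelihood fits were made over all listed regions in edgeR 4.0.16 (R 4.3.3), with filterByExpr and Benjamini-Hochberg adjustment, two-sided, called at 0.05 and without a mouse block. Unfiltered fits gave values for all 311 regions, since the filter drops thin regions. Fits were tested on simulated counts. DESeq2 1.42.0, other scalings, a mouse block, each mouse left out and other limits were alternatives.

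Each mouse gave all 4 libraries, so mouse numbers pair them. Same-mouse deviations correlated at -0.177 to 0.168. Both ends were from mouse 23: H3K9me2 of its biopsies at -0.177, and H3K9me2 and input of its area at risk at 0.168. Values of the other mice ran from -0.0418 to 0.083. Within each of the 4 groups, no library was a copy of another (chi-square per region 1.02 to 2). Pairs across groups were not compared in this way. Reads carry no molecular identifiers, so the counts' precision covers counting error only.

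Regions were named by rule: the smallest p in each comparison and direction, calls in both biopsies, list genes, the narrowest, and the highest input. One region so chosen is not reported here. Coordinates are the files' own. Sequences are from RefSeq GRCm38.p6 promoters. No genome was used here, so other sequences are not analysed here.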

Additional observations from a re-analysis of the deposited data

Results flagged for a closer look

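Among 154 groups of 6 values (the 4 library groups at each of 37 regions, the summed share of all 311 in each library group and its ratio to input in each biopsy), 6 held a library whose gap to its nearest neighbour exceeded 0.625 of the group's range. Chance gives about 1 in 20, or 7.7 such groups. In remote myocardium H3K9me2, mouse 23 stood high at Zfp985 with 36.3 CPM and mouse 22 stood high at Nr4a1 with 13.5. In area at risk input, mouse 17 stood high at Pard3b with 20.8 CPM, and mouse 30 stood high at Rbfox3 with 16.5 and at Piwil2 with 14.8. In remote myocardium input, mouse 17 stood low at Zfp981 with 4.27 CPM. Mouse 23 also decides the Zfp985 call in the remote myocardium, as given above.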

How the results depend on the processing

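The 19 area at risk calls became 36 with no filter, 6 at an FDR of 0.01, 2 at a width limit of 600 and 86 at 1000, and ran from 12 to 20 with a mouse left out. The 52 remote myocardium calls became 96, 31, 5 and 183, and 36 to 51 with a mouse left out. These limits change how many regions are tested. At widths of 600 and 1000, 16 and 589 were tested in the area at risk and 11 and 541 in the remote myocardium. In the main fits, which these width limits share, 23.6% and 40.5% of all regions tested were called in the 2 biopsies. With no filter the shares were 20% and 35.4%. Shares over all regions at an FDR of 0.01, with a mouse left out and with a mouse block were not counted. DESeq2 gave 22 calls of 308 tested (3 higher, 19 lower) and 65 of 311 (35 and 30), sharing 11 of the 19 and 36 of the 52. Its share over all listed regions was not counted. The pairing by mouse, used as a block, gave 24 and 53 calls, sharing 19 of 19 and 51 of 52, blocked medians of -0.056 and 0.147, and 0 calls in each comparison between biopsies. Those 3 comparisons gave 0 under every alternative run.

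The median log2 ratio of -0.0589 in the area at risk became 0.046 with no input floor and 0.11 over the regions that pass the filter (added after seeing the data), and ran from -0.0787 to -0.0251 with a mouse left out. In the remote myocardium 0.134 became 0.057 with a floor of 10, 0.215 with none, 0.291 at a width limit of 600 and 0.29 over regions that pass, and 0.117 to 0.158 with a mouse left out. The cause was not tested. The share ratios stayed within 1 SD under all alternatives, 0.97 and 1.08 without the 2 regions of most input (added after seeing the data) among them, at 0.948 to 0.996 and 1.06 to 1.09 with a mouse left out. Of 285 alternative values for 33 named calls, 250 kept the call, 35 lost it and 0 reversed. Depth limits single regions, at a median of 5.83 and 5.5 H3K9me2 reads per library.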
